A study of Mus musculus with 12 samples.

Results

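The Wnt pathway genes described here are 51 genes in 6 roles: 19 Wnt ligands, 10 Frizzled receptors with the co-receptors Lrp5 and Lrp6, the R-spondin receptors Lgr4 and Lgr5, 8 secreted antagonists, 4 TCF/LEF transcription factors and 6 feedback targets. They were chosen by name, and every array probe whose transcript accession maps to one of them was taken. On the array design used for retinoic acid, all 51 had a probe (64 probes), of 20660 named genes. On the design used for vitamin C, 50 had a probe (68 probes), of 18749 named genes, and Lrp5 had none.

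Expression was measured with Agilent one-colour arrays in 12 samples of J1, a line of mouse embryonic stem cells. Cells stood on gelatin in serum-replacement medium with LIF at 1000 U/mL, a cytokine that keeps them undifferentiated, and all 4 groups shared this medium. Each group had 3 samples, taken after 24 h: cells given 1 µM retinoic acid (RA), cells given 1 µL of the solvent DMSO, cells given 50 µg of vitamin C (VC), and cells given 1 µL of water (ddH2O). The labels give VC as a mass without a volume and do not tell whether samples of 1 group were separate cultures, so p-values rest on the spread between samples, which may be technical.

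Wnt proteins are secreted, lipid-modified signals. They bind a Frizzled receptor together with Lrp5 or Lrp6, which stops the destruction of β-catenin, and β-catenin then joins TCF/LEF factors on DNA and raises target genes such as Axin2 and Sp5. Many targets are brakes on the pathway, so their levels are widely used as a readout of it. In mouse embryonic stem cells Wnt signalling helps to maintain self-renewal, while retinoic acid is a standard inducer of differentiation.

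Values are log2 intensities relative to each array's own 75th percentile, so 0 is the level of a fairly bright probe, and a difference of 1 is a factor of 2. A gene was read from its brightest probe and tested where the scanner software placed it well above background for 3 or more of the 6 arrays of its comparison. Genes were called at a Benjamini-Hochberg adjusted p under 0.05 over all genes tested with limma. The share of probes detected in this way was 60.8% to 65.6% on RA and DMSO arrays and 67.0% to 70.3% on VC and ddH2O arrays. The stem cell markers Pou5f1, Sox2, Zfp42, Klf4, Esrrb, Tdgf1 and Dppa5a were well above background on every array, and the 4 retinoid response genes Cyp26a1, Rarb, Dhrs3 and Crabp2 were all higher in RA, by 4.25 to 8.31 log2. All RA arrays were on 1 slide and all DMSO arrays on another, so slide and treatment cannot be told apart there. The VC and ddH2O arrays were on 3 slides.

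In RA, Wnt ligands, several Frizzled receptors, secreted antagonists and the feedback targets Sp5, Nkd1 and Axin2 rose, while the transcription factor Lef1 fell by more than 10-fold. The receptor Fzd5 fell as much on its brightest probe, but less on its second (-1.06 log2). The fitted means of the antagonist Sfrp4 also fell by more than 10-fold, but its RA values were mostly at background. Of the 43 members tested, 27 were higher in RA, 12 were lower and 4 were not called. That is 90.7% called, beside 78.2% of the 16014 genes tested, 34.8% of which were higher and 43.3% lower. At least 2-fold changes were found in 19 members upward and 5 downward, beside 16.9% and 15.7% of all genes. The median difference over the members tested was 0.85 log2, and that over all genes was -0.10. The arrays of the groups did not overlap for 38 of the 43, beside 81.9% of all genes. Lgr5, Frzb and Wnt10b passed the detection filter through their RA arrays alone, so they had to differ, and their p-values below only describe the fit.

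**Figure D1:**
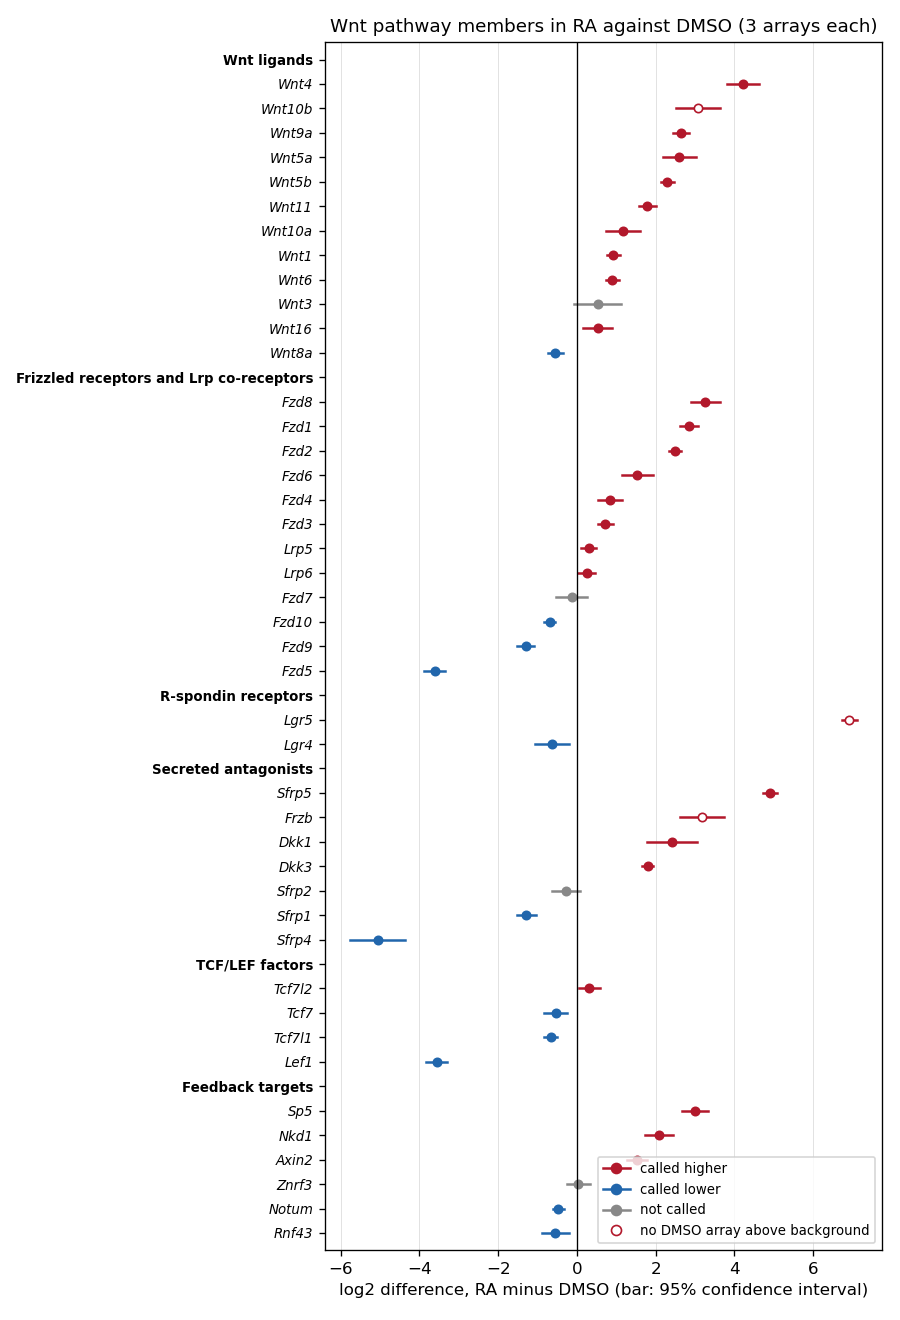
Log2 difference between RA and DMSO for the 43 members tested, grouped by role, with 3 arrays per group. Points are the fitted differences, bars their 95% confidence intervals, and colour gives the call; open points are genes with no DMSO array above background. Sfrp5 stands at 4.90 and Lef1 at -3.56, and the open points of Lgr5, Frzb and Wnt10b give no measured size.

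Of the 12 ligands tested in RA, 10 rose, 7 of them at least 2-fold, and 1 fell. Wnt4, a ligand of kidney tubule and female gonad development, had 0.05, -0.16 and -0.05 log2 in RA, against -3.96, -4.62 and -4.23 in DMSO. Every RA array was far above every DMSO array, an 18.6-fold rise (difference 4.22, SE 0.17, adjusted p 2.91e-06), and a second Wnt4 probe rose by 3.16 (of all probes fitted singly, 71.6% were called). Wnt9a, known from joint formation, had 0.11, 0.13 and -0.10 in RA, against -2.53, -2.69 and -2.60 in DMSO, and rose 6.26-fold. Wnt10b, known from bone and fat, had -3.75, -3.53 and -3.22 in RA, against -7.00, -6.52 and -6.21 in DMSO. No DMSO array was above background for Wnt10b, so it was at least 5.25-fold higher in RA (adjusted p 4.00e-05). Its fitted difference ran from 1.10 to 3.26 log2 over the processing alternatives, so the bound holds only for the processing used here.

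Wnt5a, Wnt5b and Wnt11, best known for β-catenin-independent signalling, were among the 10 ligands that rose. Wnt5a, which orients cell movement, had -1.58, -1.55 and -0.99 in RA, against -3.85, -3.98 and -4.09 in DMSO, a 6.06-fold rise. Its close relative Wnt5b had 2.50, 2.60 and 2.53 in RA, against 0.33, 0.19 and 0.23 in DMSO, a 4.90-fold rise with little spread (SE 0.07). Wnt11 had -1.67, -1.56 and -1.46 in RA, against -3.34, -3.27 and -3.46 in DMSO, a 3.46-fold rise. In none of these 3 genes did an RA array overlap a DMSO array.

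Smaller rises were found for Wnt10a (1.17 log2), Wnt1, a midbrain ligand (0.93), Wnt6 (0.90) and Wnt16 (0.52). The level and size for Wnt1 depend on the probe. Its dimmer probe had means of -4.82 in RA and -8.01 in DMSO. That probe was above background on 2 RA arrays and 0 DMSO arrays and was not tested. Spike-in scaling ended the Wnt6 call (0.44). The Wnt16 call ended with quantile normalization, median scaling, spike-in scaling and the authors' series values (0.07 to 0.22), as it did without DMSO replicate 1 (0.53, adjusted p 0.052) or DMSO replicate 3 (0.47, adjusted p 0.066). Wnt8a, a ligand of the early posterior embryo, fell: it had -2.13, -2.15 and -2.32 in RA, against -1.69, -1.68 and -1.60 in DMSO (1.46-fold lower, adjusted p 0.00068). Wnt3, which is needed for the primitive streak, had -5.28, -4.85 and -5.43 in RA, against -5.58, -6.18 and -5.38 in DMSO. It was above background on 1 RA array and 2 DMSO arrays, its groups overlapped and it was not called (adjusted p 0.091). Wnt3a was not above background on any of the 6 arrays, with -7.50, -7.42 and -6.90 in RA, against -7.87, -7.97 and -8.00 in DMSO, and neither were Wnt2 and Wnt2b. Wnt7a, Wnt7b, Wnt8b and Wnt9b were above background on 1 or 2 RA arrays and were not tested.

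Among the receptors and co-receptors, 8 of 12 rose and 3 fell. Fzd8 had -0.42, -0.32 and -0.83 in RA, against -3.78, -3.92 and -3.66 in DMSO, and rose 9.61-fold (adjusted p 4.86e-06). Fzd1 had 0.91, 1.01 and 0.73 in RA, against -2.06, -1.91 and -1.91 in DMSO, and rose 7.19-fold. Fzd2 had 3.93, 3.94 and 3.82 in RA, against 1.36, 1.44 and 1.41 in DMSO, and rose 5.64-fold. All 3 were separated from DMSO on every array, and the second Fzd2 probe rose by 3.78. Fzd6, a receptor of planar cell polarity, rose by 1.53, Fzd4 by 0.85 and Fzd3 by 0.72 log2. Spike-in scaling ended the calls of Fzd4 (0.39) and Fzd3 (0.27).

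The falls among receptors were of Fzd5, Fzd9 and Fzd10. Fzd5, a receptor that can act through β-catenin, had -3.51, -3.61 and -3.39 in RA, against 0.27, 0.14 and -0.07 in DMSO, a 12.2-fold fall (difference -3.61, SE 0.11, adjusted p 9.00e-07). Its second probe fell less, by 1.06. Fzd9 had -0.85, -1.06 and -0.77 in RA, against 0.39, 0.43 and 0.42 in DMSO (2.47-fold lower). Fzd10 had 0.96, 0.96 and 0.92 in RA, against 1.66, 1.65 and 1.62 in DMSO (1.62-fold lower). The RA arrays lay below every DMSO array for each.

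Fzd7, the third member of the group formed with Fzd1 and Fzd2, depended on the probe. On the brighter probe it had 1.18, 1.60 and 0.95 in RA, against 1.35, 1.41 and 1.38 in DMSO, with overlapping groups and no call (adjusted p 0.47). Without RA replicate 2 it was called lower, by -0.31 (adjusted p 0.022). Its other probe rose by 2.03, and the mean over both probes was called higher, by 0.95. The co-receptors moved little: Lrp5 rose by 0.30, and Lrp6 had 3.23, 3.19 and 3.48 in RA, against 3.06, 3.09 and 3.01 in DMSO, a difference of 0.24 (adjusted p 0.048). Both co-receptor calls were lost with median and spike-in scaling, with a change of sign for Lrp6 in both and for Lrp5 in spike-in scaling. The Lrp5 call was also lost without DMSO replicate 1 (0.27, adjusted p 0.052). The Lrp6 call was also lost with no detection filter, with the mean over probes, with probes fitted singly, with the replicate block, and without RA replicate 1 or without any 1 DMSO array, with adjusted p of 0.060 to 0.13.

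Lgr5, an R-spondin receptor and a marker of stem cells in the adult gut, had -1.02, -1.0 and -1.20 in RA, against -7.91, -8.00 and -8.03 in DMSO. No DMSO array was above background, so it was at least 28.3-fold higher in RA (adjusted p 6.56e-08). Over the processing alternatives its fitted difference ran from 2.46 to 6.98 log2, so the bound holds only for the processing used here. Lgr4, a broadly expressed receptor of the same ligands, had -1.09, -0.64 and -1.30 in RA, against -0.42, -0.46 and -0.24 in DMSO. Lgr4 fell 1.55-fold without overlap (adjusted p 0.014). Because Lgr5 passed the detection filter through RA alone, its direction was set in advance, and no contrast of this pair is drawn.

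Secreted antagonists also split. Of 7 tested, 4 rose and 2 fell, all 6 by at least 2-fold. Sfrp5, which binds Wnts through a Frizzled-like domain, had 3.68, 3.85 and 3.76 in RA, against -1.15, -1.19 and -1.05 in DMSO, a 29.8-fold rise (difference 4.90, SE 0.07, adjusted p 1.01e-07). Frzb, of the same family, had -4.30, -4.08 and -4.45 in RA, against -7.00, -7.50 and -7.87 in DMSO, where no array was above background. It was at least 3.06-fold higher in RA with the processing used here, and its fitted difference ran from 1.0 to 3.41 log2 over the alternatives. Dkk1, which blocks Lrp5 and Lrp6, had -3.19, -3.22 and -3.52 in RA, against -6.28, -5.25 and -5.63 in DMSO, and its fitted means rose 5.31-fold. Only 1 DMSO array was above background for Dkk1, so that size rests on values mostly at background. Dkk3, a divergent family member, rose 3.47-fold with groups far apart.

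In the other direction, Sfrp4 had -4.09, -5.28 and -4.91 in RA, against 0.33, 0.32 and 0.26 in DMSO. Only 1 RA array was above background, so the 33.4-fold fall of the fitted means (adjusted p 1.23e-05) rests mostly on values at background. Sfrp1, well studied as a Wnt-binding antagonist, had -0.61, -0.54 and -0.87 in RA, against 0.66, 0.56 and 0.60 in DMSO, and fell 2.43-fold. Sfrp2, with a difference of -0.27, was not called (adjusted p 0.14) and its groups overlapped. Without RA replicate 2 it was called lower, by -0.40 (adjusted p 0.024). Dkk2 was above background on no array and was not tested.

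The TCF/LEF factors, which carry β-catenin to DNA, were mostly lower. Lef1 had -1.07, -0.90 and -0.70 in RA, against 2.65, 2.77 and 2.58 in DMSO, an 11.8-fold fall (difference -3.56, SE 0.11, adjusted p 1.01e-06). Tcf7l1, a repressor of the stem cell programme, had 0.31, 0.38 and 0.39 in RA, against 1.11, 0.95 and 1.03 in DMSO, and fell 1.59-fold. Tcf7 had 0.16, 0.59 and 0.24 in RA, against 0.83, 0.88 and 0.89 in DMSO, and fell 1.45-fold. The dimmer Tcf7 probe differed by -1.14 and was called lower. On their brightest probes, none of these 3 factors overlapped between groups. Tcf7l2 was called higher, by 0.31, although its arrays overlapped, and its call was lost with quantile normalization, median and spike-in scaling, the authors' series values, no detection filter and the replicate block, the sign turning with spike-in scaling. It was also lost without RA replicate 1 or 3, or DMSO replicate 1 or 3, with adjusted p of 0.092 to 0.12. Dimmer Tcf7l2 probes differed by 0.89, called higher, and by 0.17, not called.

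The 6 feedback targets did not move as 1 group: 3 rose at least 2-fold, 2 fell by less and 1 was not called. Sp5, a zinc-finger factor induced by Wnt, had 0.02, 0.20 and 0.46 in RA, against -2.90, -2.61 and -2.83 in DMSO, an 8.02-fold rise (difference 3.0, SE 0.13, adjusted p 4.60e-06). Nkd1, an inhibitor that binds Dishevelled, had 0.32, 0.52 and -0.04 in RA, against -1.86, -1.74 and -1.85 in DMSO, and rose 4.24-fold. Axin2, a scaffold of the β-catenin destruction complex, had -1.56, -1.34 and -1.71 in RA, against -3.11, -3.07 and -2.99 in DMSO, and rose 2.87-fold. Every RA array was above every DMSO array for these 3, and a second Axin2 probe rose by 0.80. The second Nkd1 probe differed by 1.38 with SE 0.53 and was not called (adjusted p 0.055).

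Notum, an enzyme that strips the lipid from Wnts, had 3.36, 3.34 and 3.25 in RA, against 3.80, 3.79 and 3.78 in DMSO, a 1.39-fold fall. Rnf43, a ligase that removes Frizzled receptors from the membrane, had -3.89, -3.56 and -3.33 in RA, against -3.15, -3.02 and -2.98 in DMSO, a 1.46-fold fall (adjusted p 0.013). With normexp background correction the Rnf43 difference was 0.09 and not called. Znrf3, a ligase of the same kind, had a difference of 0.04 and overlapping groups (adjusted p 0.79). Without RA replicate 2 it was called higher, by 0.17 (adjusted p 0.045).

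**Figure D2:**
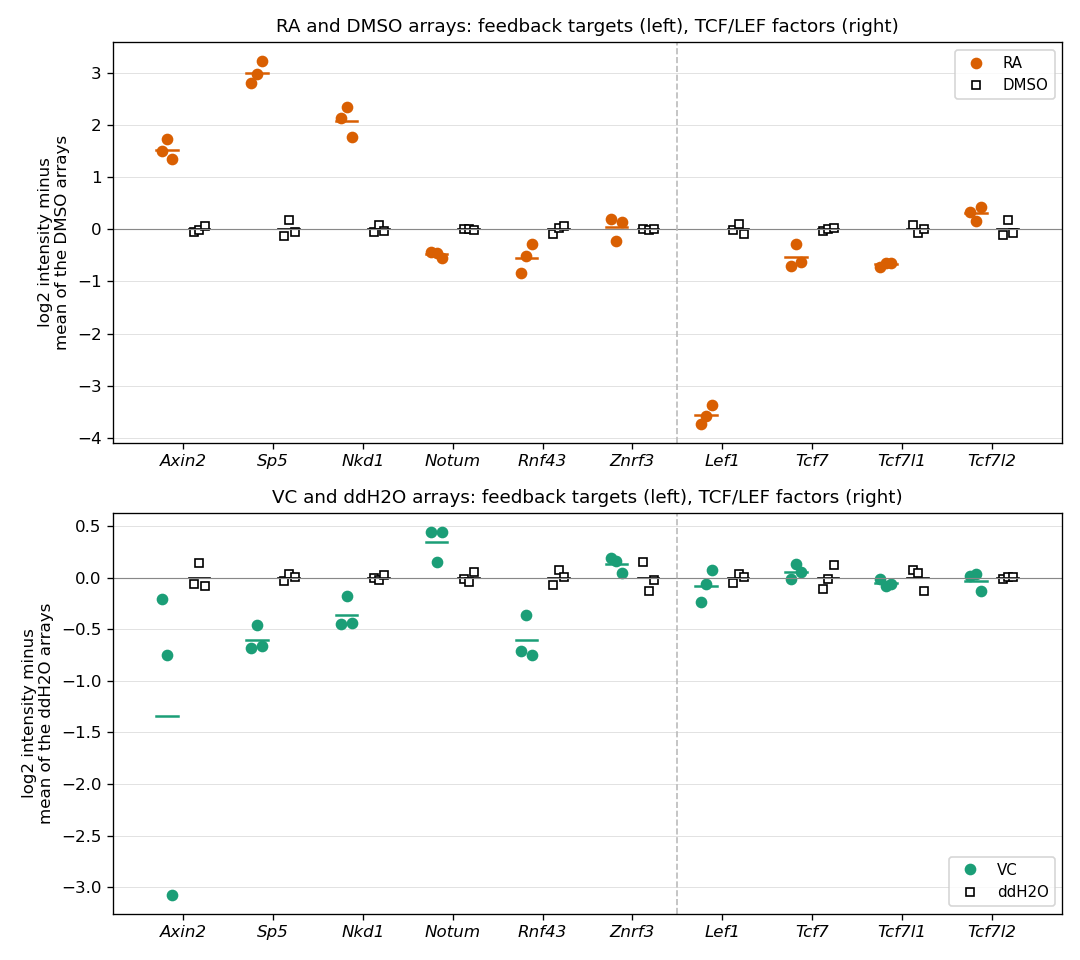
Log2 intensity of each array minus the mean of the 3 control arrays of the same probe, for the 6 feedback targets and the 4 TCF/LEF factors, RA and DMSO above, VC and ddH2O below (3 arrays each, lines are means). Sp5, Nkd1 and Axin2 stand above DMSO on all RA arrays and Lef1 far below. In VC, 1 Axin2 array lies far below the other two, and the TCF/LEF factors overlap ddH2O.

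The promoters of members, whatever their direction in RA, were searched for the DNA words that TCF/LEF factors read. The windows reach from 250 bases before to 50 bases after a gene's start, from RefSeq on GRCm38.p6, and 35 of the 51 members matched, with 44 windows. The words searched, on both strands, were CTTTGAT, held by 3.73% of 32851 windows of this length, and CTTTGTT, held by 5.85%. Either word lay in 9.33% of these windows and in 15.9% of the 44 member windows. Among members, CTTTGAT lay in windows of Sp5, Wnt5b and Wnt11, and CTTTGTT in windows of Sp5, Dkk1, Fzd7, Tcf7l2 and Wnt3. Of these 7 genes, Sp5, Wnt5b, Wnt11, Dkk1 and Tcf7l2 rose in RA, beside 27 of all 43 members tested. The first 4 are shown because they were at least 2-fold higher, and Axin2 because it rose without either word in its window. Capitals mark the matches, written on the gene's strand, so a match on the opposite strand reads as its reverse complement.
Sp5, chr2:70474673-70474972, plus strand: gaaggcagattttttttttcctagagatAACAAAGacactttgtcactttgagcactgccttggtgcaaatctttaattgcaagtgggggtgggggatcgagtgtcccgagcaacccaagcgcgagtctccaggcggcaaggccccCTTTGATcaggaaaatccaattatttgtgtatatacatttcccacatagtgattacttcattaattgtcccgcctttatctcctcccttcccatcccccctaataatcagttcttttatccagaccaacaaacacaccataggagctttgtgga
Wnt5b, chr6:119449337-119449636, minus strand: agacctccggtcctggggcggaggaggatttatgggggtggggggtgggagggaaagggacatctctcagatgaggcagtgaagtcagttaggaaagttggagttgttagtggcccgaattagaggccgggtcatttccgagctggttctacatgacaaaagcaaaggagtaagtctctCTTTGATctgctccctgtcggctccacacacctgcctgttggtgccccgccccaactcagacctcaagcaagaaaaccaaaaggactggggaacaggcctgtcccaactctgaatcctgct
Wnt11, chr7:98834862-98835161, plus strand: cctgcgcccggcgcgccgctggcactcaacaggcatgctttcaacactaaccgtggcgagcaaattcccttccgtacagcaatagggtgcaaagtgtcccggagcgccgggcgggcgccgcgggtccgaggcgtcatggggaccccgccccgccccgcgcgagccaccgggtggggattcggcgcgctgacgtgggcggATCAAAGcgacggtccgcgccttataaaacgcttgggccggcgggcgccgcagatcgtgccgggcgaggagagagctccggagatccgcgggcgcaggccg
Dkk1, chr19:30549447-30549746, minus strand: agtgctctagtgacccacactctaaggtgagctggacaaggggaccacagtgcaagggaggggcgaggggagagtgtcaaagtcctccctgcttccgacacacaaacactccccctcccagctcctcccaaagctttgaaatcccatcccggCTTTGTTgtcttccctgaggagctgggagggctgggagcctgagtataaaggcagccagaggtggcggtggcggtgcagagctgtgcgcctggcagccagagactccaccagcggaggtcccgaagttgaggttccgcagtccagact
Axin2, chr11:108920099-108920398, plus strand: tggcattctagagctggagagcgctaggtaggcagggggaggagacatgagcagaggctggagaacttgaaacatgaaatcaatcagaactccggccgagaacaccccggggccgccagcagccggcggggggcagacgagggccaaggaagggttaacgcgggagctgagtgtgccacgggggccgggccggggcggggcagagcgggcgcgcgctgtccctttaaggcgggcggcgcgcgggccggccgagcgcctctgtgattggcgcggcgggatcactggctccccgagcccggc
The Sp5 window holds CTTTGAT 104 bases before the start and a reverse CTTTGTT 222 bases before it. The Wnt5b match lies 71 bases, the reverse Wnt11 match 51 bases and the Dkk1 match 98 bases before the start. Wnt5b and Wnt11 have other start sites whose windows hold neither word. A direct repeat of AGGTCA or AGTTCA with 5 bases between, the letters read by retinoic acid receptors, was in none of the 44 windows and in at most 0.0244% of all windows for any of its 4 forms. No matches overlapped each other, and a match describes letters and is not evidence of binding.

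Other genes of the pathway, in lists chosen by function, changed in RA about as often as all genes: 25 of 53 tested were higher and 14 lower, 73.6% in all. Rspo3 and Rspo2, ligands of Lgr4 and Lgr5, were above background on no DMSO array and passed the filter through RA, where they were at least 12.8-fold and 2.83-fold higher. Wls, which carries Wnts to the cell surface, rose 17.9-fold, while Porcn, which attaches their lipid, fell 2.90-fold. Prickle1, of planar cell polarity, rose 15.8-fold and Celsr3 of the same list fell 5.18-fold. Among other reported targets Sp8 rose 10.72-fold and Ccn4 8.47-fold (above background on 2 DMSO arrays), while Ccnd1 fell 6.02-fold and Ascl2 3.15-fold. In the destruction and transduction list Gsk3b and Apc2 rose 2.23-fold and 2.24-fold, and Dvl2 fell 1.62-fold. The nuclear cofactor Bcl9l rose 2.71-fold and Cby1, which restrains β-catenin, fell 2.05-fold.

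Markers of cell identity moved with these differences, and their part in them was not tested. In bulk samples, more cells of a type and more RNA per cell cannot be told apart. Summed over 8 stem cell markers, the level was 91.1 to 103 times the 75th percentile in RA and 565 to 591 times in DMSO: 7 fell and Nanog rose. The 12 fibroblast markers summed to 43.4 to 46.7 in RA and 2.54 to 2.69 in DMSO. Of 9 tested, 8 were higher and 1 was lower, and Postn, Lum and Fap were above background nowhere. All 8 primitive endoderm markers rose, with sums of 191 to 215 in RA and 135 to 142 in DMSO. Neuroectoderm markers summed to 23.3 to 24.4 in RA and 4.84 to 4.94 in DMSO. Of 7 tested, 5 were higher and 2 lower, each by at least 2-fold, and Neurog2 was above background nowhere. Mesoderm markers summed to 6.97 to 7.58 in RA and 1.27 to 1.35 in DMSO. Of 5 tested, 3 were higher and 2 were lower by at least 2-fold, and Mixl1 and Evx1 were above background nowhere. Blood and endothelial markers summed to 11.6 to 17.9 in RA and 11.1 to 12.1 in DMSO. Of 8 tested, 4 were higher and 2 were lower by at least 2-fold, and Cdh5 and Hba-x were above background nowhere.

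The scaling of the arrays matters for small changes in RA. Median scaling moved the median difference of all genes by -0.30 log2 and spike-in scaling by -0.46, and the higher share of all calls was 31.6% and 25.3% with them, beside 44.6%. The members called became 23 higher and 13 lower with median scaling, and 20 higher and 13 lower with spike-in scaling. Both scalings shift every gene alike, so the members' median stood 0.95 above the median of all genes in each by construction.

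In VC, members moved far less and mostly downward. Dkk3 (grouped here with the antagonists), the targets Sp5, Rnf43 and Nkd1, and the ligands Wnt4, Wnt16 and Wnt5b were lower. The receptors Fzd3, Fzd4 and Lgr4 were also lower, and the antagonist Sfrp2 was higher. These 10 lower and 1 higher calls came from 40 members tested, 27.5%, beside 16.9% of the 14531 genes tested (6.35% higher and 10.5% lower). With slide as a fixed block, 0 members and 0 genes were called with limma, 14 members having an unadjusted p under 0.05. No member called changed 2-fold. The median difference was -0.15 log2 over the members tested and -0.003 over all genes, and 31 of the 40 differences (77.5%) were below 0, beside 50.6% of all genes. Arrays did not overlap for 20 of the 40, beside 41.9% of all genes. Over all genes the higher share of calls was 37.6%, but median scaling gave 54.8% and spike-in scaling 55.5%.

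**Figure D3:**
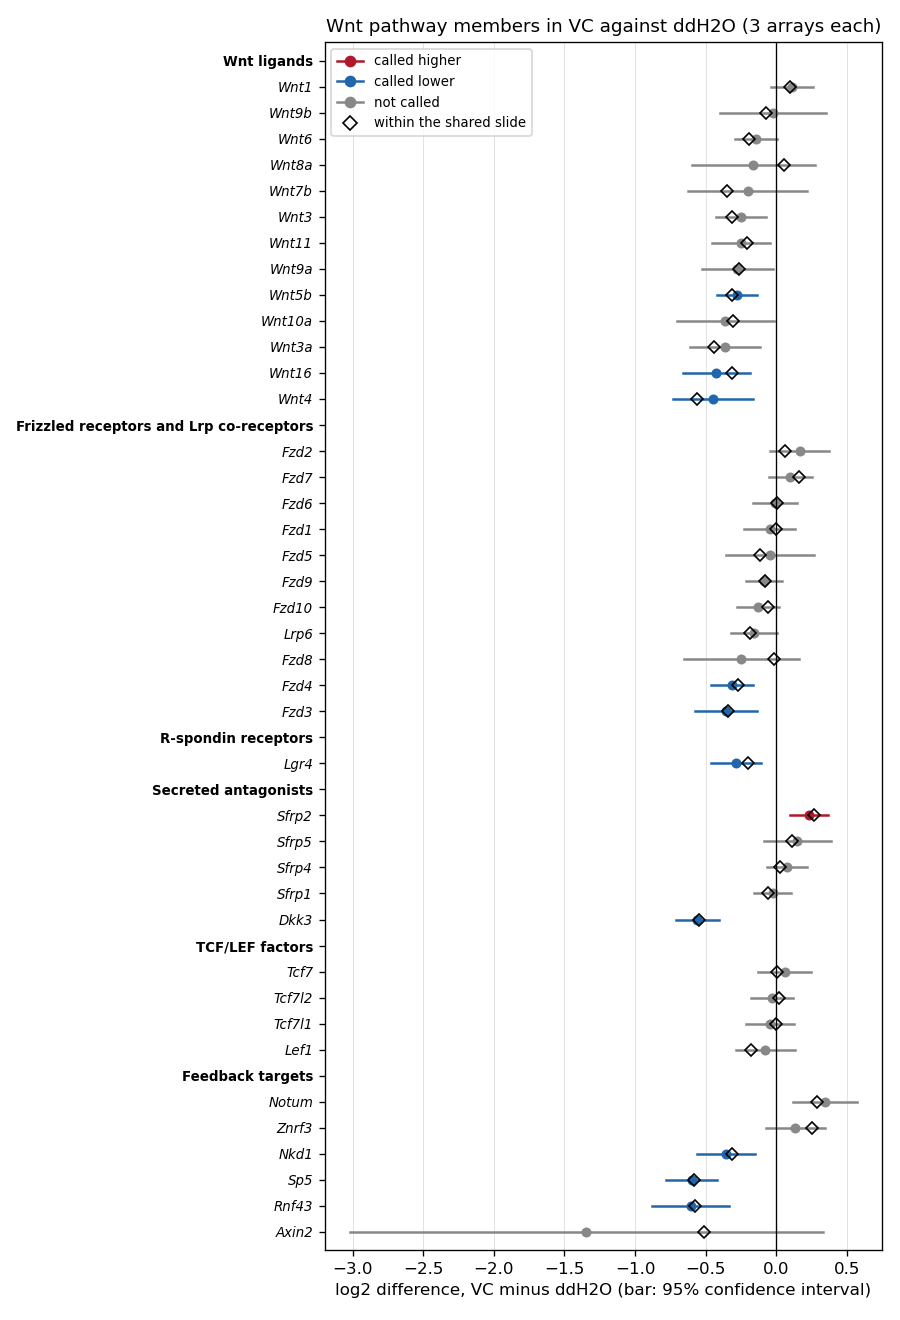
Log2 difference between VC and ddH2O for the 40 members tested, grouped by role (3 arrays per group). Points are the fitted differences, bars their 95% confidence intervals, colour gives the call, and open diamonds are the differences within the slide that held arrays of both groups. Called members lie between -0.61 and 0.23, and their diamonds come from 4 of the 6 arrays behind the points.

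Of the 6 feedback targets, 3 were called in VC, all lower. Sp5 had -2.47, -2.24 and -2.45 in VC, against -1.83, -1.76 and -1.79 in ddH2O, a 1.52-fold fall (difference -0.60, SE 0.08, adjusted p 0.0090). Rnf43 had -2.14, -1.79 and -2.18 in VC, against -1.51, -1.36 and -1.43 in ddH2O, a 1.52-fold fall (adjusted p 0.020). Nkd1 had -1.45, -1.18 and -1.44 in VC, against -1.0, -1.02 and -0.97 in ddH2O, a 1.28-fold fall (adjusted p 0.038). VC replicate 2 was the nearest to ddH2O in each, and no array overlapped. The other Nkd1 probe differed by -0.20 and was not called.

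Axin2 was not called. It had -4.57, -5.11 and -7.44 in VC, against -4.43, -4.23 and -4.44 in ddH2O, a difference of -1.34 with SE 0.70 (adjusted p 0.22). The size came from VC replicate 3, where the probe was not above background: without that array the difference was -0.48 (adjusted p 0.13). Notum had -0.83, -1.13 and -0.83 in VC, against -1.29, -1.31 and -1.22 in ddH2O, higher by 0.34 without overlap and just outside the threshold (adjusted p 0.051). Znrf3 overlapped, with a difference of 0.14.

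The TCF/LEF factors gave no call in VC, 0 of 4 with limma and 0 at an unadjusted p under 0.05. Lef1 had 2.06, 2.24 and 2.37 in VC, against 2.25, 2.34 and 2.31 in ddH2O. Tcf7 had 0.52, 0.67 and 0.59 in VC, against 0.43, 0.52 and 0.66 in ddH2O. Tcf7l1 had 2.50, 2.43 and 2.45 in VC, against 2.59, 2.56 and 2.38 in ddH2O. All 4 overlapped, and the 95% confidence intervals of their differences, on the brightest probes, reached from -0.29 to 0.25 log2. Dimmer probes differed by 0.34 and 0.33 for Tcf7l2 and by 0.18 each for Tcf7 and Tcf7l1, none of them called.

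Of 13 ligands tested in VC, 3 fell. Wnt4 had -4.29, -3.91 and -3.96 in VC, against -3.74, -3.51 and -3.58 in ddH2O (1.36-fold lower, adjusted p 0.049). Wnt16 had -4.94, -4.99 and -4.97 in VC, against -4.33, -4.66 and -4.64 in ddH2O (1.34-fold lower, adjusted p 0.034). Wnt5b had -2.07, -2.10 and -2.09 in VC, against -1.89, -1.81 and -1.73 in ddH2O (1.21-fold lower, adjusted p 0.028), while its other probe differed by 0.02 and was not called. Arrays did not overlap for any of the 3. The Wnt4 and Wnt16 calls were lost with quantile normalization, median scaling, spike-in scaling and the authors' series values, where the differences were -0.41 to -0.39 and -0.39 to -0.37.

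Wnt3 and Wnt3a, which signal through β-catenin, also stood lower on each VC array but missed the threshold. Wnt3 had -3.46, -3.39 and -3.23 in VC, against -3.11, -3.14 and -3.08 in ddH2O (adjusted p 0.064), while its other probe differed by -0.04 and was not called. Wnt3a had -4.98, -5.19 and -4.81 in VC, against -4.60, -4.58 and -4.71 in ddH2O (adjusted p 0.059). Wnt11 had -3.01, -2.82 and -3.12 in VC, against -2.78, -2.75 and -2.67 in ddH2O, again without overlap (adjusted p 0.090). Wnt5a was not above background on any array, with -8.03, -7.61 and -8.04 in VC, against -7.96, -7.87 and -7.86 in ddH2O. Wnt1, Wnt6, Wnt7b, Wnt8a, Wnt9a, Wnt9b and Wnt10a were tested and not called, with differences of -0.36 to 0.11. Wnt2, Wnt2b, Wnt7a, Wnt8b and Wnt10b were above background on too few arrays for a test.

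Receptors gave 2 calls of 11 in VC. Fzd4 had -0.79, -0.68 and -0.86 in VC, against -0.46, -0.45 and -0.46 in ddH2O, a 1.24-fold fall (adjusted p 0.024). Fzd3 had -1.60, -1.50 and -1.74 in VC, against -1.35, -1.12 and -1.29 in ddH2O, a 1.28-fold fall (adjusted p 0.044), and its other 2 probes differed by -0.09 and -0.06. Lgr4 had 1.07, 1.08 and 0.95 in VC, against 1.41, 1.34 and 1.21 in ddH2O, a 1.22-fold fall (adjusted p 0.046). Its other 2 probes differed by -0.20 and 0.10, neither called, and the Lgr4 call was lost with the mean over probes. These 3 receptors did not overlap between groups.

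Fzd7 had 1.30, 1.37 and 1.20 in VC, against 1.22, 1.17 and 1.18 in ddH2O, overlapping and not called. Its dimmer probe was called higher by 0.38 among the probes fitted singly (adjusted p 0.035), where 8.27% of 28159 probes were called. Lrp6 had -2.03, -1.93 and -2.04 in VC, against -1.93, -1.76 and -1.83 in ddH2O, also overlapping. Fzd1, Fzd2, Fzd5, Fzd6, Fzd8, Fzd9 and Fzd10 differed by -0.25 to 0.17 and were not called. Lgr5 was above background on 1 ddH2O array and was not tested.

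Among antagonists, Dkk3 had -2.0, -1.82 and -1.96 in VC, against -1.38, -1.38 and -1.34 in ddH2O, a 1.47-fold fall with the smallest adjusted p of any member (0.0080). Sfrp2 had 1.23, 1.25 and 1.25 in VC, against 1.09, 0.95 and 0.99 in ddH2O, a 1.17-fold rise (adjusted p 0.040). Neither overlapped between groups. Dkk1 was above background on none of the 6 arrays, with -6.50, -6.76 and -8.23 in VC, against -5.99, -6.71 and -6.86 in ddH2O. Sfrp1, Sfrp4 and Sfrp5 differed by -0.03 to 0.15 and were not called. Dkk2 and Frzb were not tested.

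Other pathway genes gave 1 higher and 11 lower calls of 50 tested in VC, 24% in all. Of all genes 16.9% were called, 6.35% higher and 10.5% lower. With slide as a fixed block 0 genes were called, so the calls below hold only without that block. Wif1, a secreted Wnt-binding inhibitor, fell 1.86-fold (adjusted p 0.0080), and Rspo1 fell 1.37-fold. The reported targets Ccn4 and Sp8 fell 1.58-fold and 1.52-fold, Prickle2 fell 1.51-fold and Prickle1 1.24-fold. Porcn fell 1.40-fold and Ctnnbip1, which blocks β-catenin binding to TCF, 1.23-fold. Dvl2, which relays the signal from Frizzled, was the 1 higher (1.23-fold).

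Slides move with these VC results. VC replicates 1 and 2 and ddH2O replicates 2 and 3 shared a slide, while ddH2O replicate 1 and VC replicate 3 each lay on another, the last also scanned on another day. Within the shared slide, the 11 called members differed by 0.20 to 0.59 log2 in size, with signs as in the calls, and the members' median was -0.15. These 4 arrays are among the 6 that gave the calls, so the signs there are no independent check. With slide as a fixed block the lowest adjusted p of a member was 0.065. Leaving out 1 array at a time kept the calls of Dkk3 and Sp5 in all 6 fits, of Rnf43 in 2 fits, and of Nkd1, Wnt16, Fzd3, Fzd4 and Lgr4 in 1 fit. The calls of Wnt4, Wnt5b and Sfrp2 were kept in none, with adjusted p of 0.054 to 0.15, 0.051 to 0.10 and 0.062 to 0.14. Over these fits the 10 lower members stayed between -0.73 and -0.24 and Sfrp2 between 0.20 and 0.27. Over all 21 alternatives the calls of Dkk3 and Sp5 were kept in 19, of Rnf43 in 14, of Fzd4 in 11, of Nkd1 and Sfrp2 in 9, of Fzd3 and Lgr4 in 8, of Wnt5b in 7, of Wnt16 in 5 and of Wnt4 in 4. Some members gained a call when 1 array was left out: Notum (0.44), Wnt11 (-0.33) and Wnt9a (-0.38) without VC replicate 2, and Wnt3 (-0.31) and Wnt3a (-0.45) without VC replicate 3. Stem cell markers summed to 589 to 636 in VC and 552 to 632 in ddH2O (3 of 7 tested higher), and fibroblast markers to 3.05 to 3.37 in VC and 3.95 to 4.29 in ddH2O (2 of 9 lower, Lum and Fap above background nowhere). Blood and endothelial markers summed to 0.81 to 0.85 in VC and 1.06 to 1.20 in ddH2O (1 of 4 tested lower, Ptprc, Cdh5, Hbb-bh1 and Hba-x above background nowhere), and neuroectoderm markers to 1.39 to 1.54 in VC and 1.64 to 1.72 in ddH2O (1 of 6 lower, Pax3 above background nowhere). Mesoderm and primitive endoderm sums overlapped between the groups. The part of these markers in the results was not tested.

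The 2 comparisons share no samples and use different array designs, often with different probes, so levels are not set across them. Of the 37 members tested in both, 8 were lower in VC and higher in RA: Dkk3, Fzd3, Fzd4, Nkd1, Sp5, Wnt16, Wnt4 and Wnt5b. Lgr4 and Rnf43 were lower in both. The 8 are 80% of the members lower in VC that were tested in both, beside 52.9% over all such genes. Sp5 differed by -0.60 in VC and 3.0 in RA, Dkk3 by -0.56 and 1.79, and Wnt4 by -0.45 and 4.22. The large RA falls of Lef1 and Sfrp4 had VC differences of -0.08 and 0.08, neither called.

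**Figure D4:**
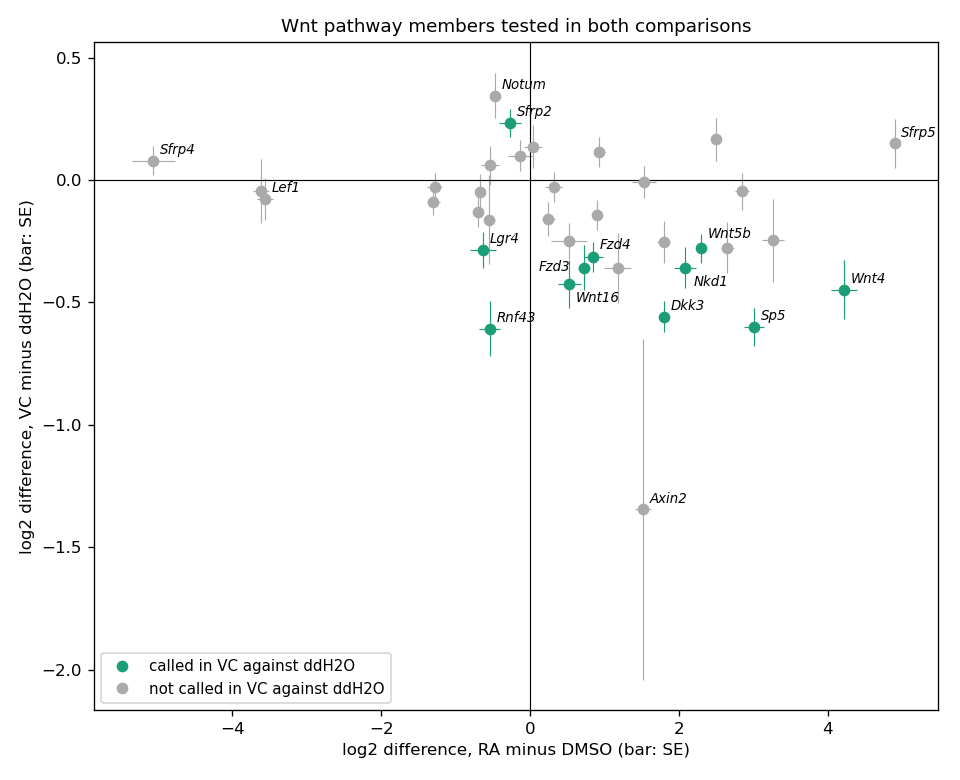
Log2 difference between VC and ddH2O (vertical) against that between RA and DMSO (horizontal) for the 37 members tested in both, with SE bars and 3 arrays per group. The 8 members lower in VC and higher in RA lie at lower right, Lgr4 and Rnf43 at lower left, and Axin2 has a wide vertical bar.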

How the data were processed

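Total RNA of 12 samples, 3 each of RA, DMSO, VC and ddH2O, was labelled with Cy3 and hybridised to 2 Agilent designs, 1 per comparison. Per the file headers, the deposited scanner files give spot intensities that Agilent Feature Extraction, version 10.7.3.1, had background-subtracted and detrended. Version 10.7 stands in the submitters' processing notes. The deposited series tables give log2 values per probe, made by a normalization not given in the sources used here, with a median of 5.18 in each RA and DMSO column and of 5.96 in each VC and ddH2O column.

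From the processed intensity, log2 was taken, outlier spots were left out, spots were averaged per probe and each array's 75th percentile over non-control probes was subtracted. Accessions, without versions, were matched to RefSeq symbols (27235 of 55681 probes on the RA design, 27479 of 41174 on the VC design), since the files hold no gene names. No spot was saturated. Tests ran in limma 3.58.1 under R 4.3.3, by lmFit and eBayes, with each design fitted on its own, and their precision is limited by how few arrays there are. The fits were tested on data simulated with real means and spreads, with 200 genes changed per design. Simulated 1.5-fold changes were recovered at 70.1% in VC and 53.7% in RA, and 4-fold changes at 93.9% and 97%. False calls were 5.62% and 6.1%. In RA 78.2% of genes were called, so a simulation with few genes changed does not represent that comparison. A lower bound of a fold sets the bright group's mean against the dim group's mean, where each dim array counts at its smallest detected probe signal or at the gene's own value, whichever is larger.

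The members, the lists, the tests and the rule for named genes (13 set genes, and up to 3 rises and 3 falls per role among called members without overlap) were chosen with earlier results of these data known. Alternatives covered normalization, background, detection, probes, spot flags, variance, blocks and each array left out. The mean signal column was not in the files, so normexp ran on the median signal with its local background. Same-numbered samples did not deviate together (correlations from -0.116 to 0.06), so the replicate number was not used as a pairing.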

Additional observations from a re-analysis of the deposited data

How the results depend on the processing

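In VC, with 1 member higher and 10 lower, quantile normalization, median scaling, spike-in scaling, the authors' series values, a filter on all 6 arrays and an intensity trend each gave 2 higher. Members lower were 4 with spike-in scaling, 6 with the mean over probes, 4 with every probe fitted singly and 2 without a detection filter, and the last pair gave 0 higher. The members' median of -0.15 was -0.0998 (median scaling) and -0.0923 (spike-in). With normexp, 0 members were called either way (0 at an unadjusted p under 0.05) and the median was 0.23. That fit put the background means of VC replicates 1 and 2 and ddH2O replicate 2 at -380, -857 and -303, and turned the sign of Wnt4 (0.68), Wnt5b (0.30), Wnt16 (0.88), Fzd3 (0.0591), Dkk3 (0.10), Sfrp2 (-0.0023), Rnf43 (0.16), Sp5 (0.23) and Nkd1 (0.13). Without spots of high local background normexp gave 0 higher, 4 lower and a median of -0.0899. The replicate block gave 0 higher and 4 lower, without evidence of pairing, and slide as a fixed block gave 0 and 0. Leaving out 1 array gave 0 to 1 higher and 2 to 8 lower, with a median of -0.17 to -0.12: 2 lower without VC replicate 1 or ddH2O replicate 2, 3 without ddH2O replicate 1 or 3, 5 without VC replicate 3. Of the 11 called, only Dkk3 and Sp5 kept their call in all 6, and the 1 higher, without VC replicate 2, was Notum. Over all genes the calls (922 higher, 1529 lower) were 62 to 715 higher and 339 to 1250 lower when 1 array was left out, 290 and 706 without a filter, 456 and 1044 for single probes, 259 and 684 with the replicate block, 353 and 624 with normexp without those spots, 1222 and 979 with spike-in scaling, and 1386 and 1144 with median scaling. The cause was not tested.

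In RA, 27 higher and 12 lower became 20 to 30 and 11 to 14 over all alternatives, and the replicate block gave 25 and 12. The members' median of 0.85 was 0.76 with quantile normalization, 0.55 with median scaling, 0.39 with spike-in scaling, 0.77 with normexp in both forms and with the authors' series values, 0.72 on probes detected on all arrays, 0.90 with the mean over probes, and 0.76 to 0.88 with 1 array left out. Signs turned for Lrp6 under median (-0.0538) and spike-in (-0.21) scaling, for Lrp5 (-0.16) and Tcf7l2 (-0.14) with spike-in scaling, for Rnf43 with both normexp forms (0.0896) and for Fzd7 with the mean over probes (0.95). Over all genes 2886 were higher with spike-in scaling, against 5580.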

Other observations

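Some members near the detection limit left single arrays apart from the rest, and none of them was tested. Frzb, the secreted antagonist, had -8.41, -8.05 and -4.02 log2 in VC, against -8.14, -8.29 and -8.28 in ddH2O, and was above background on VC replicate 3 alone. That is the same array on which Axin2 was not above background.

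Further ligands, each short of the 3 arrays needed for a test, were above background on RA arrays and on no DMSO array. Wnt9b, known from kidney development, had -5.04, -3.86 and -3.72 in RA, against -6.63, -7.34 and -7.65 in DMSO, with 2 RA arrays above background. Wnt7b had -4.38, -4.31 and -4.87 in RA, against -6.14, -6.16 and -6.18 in DMSO, also with 2. Wnt7a and Wnt8b were above background on 1 RA array each. In Wnt9b, Wnt7b and Wnt7a every RA array lay above every DMSO array, while Wnt8b overlapped. These genes were picked for being above background in RA alone, so such separation was largely set by the choice. Arrays did not overlap for 81.9% of all genes tested.

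Members lie next to each other in the genome as 4 pairs of neighbouring protein-coding genes in the RefSeq order: Wnt6 and Wnt10a on chromosome 1, Wnt3a and Wnt9a on chromosome 11, Wnt9b and Wnt3 on chromosome 11, and Wnt10b and Wnt1 on chromosome 15. In RA, Wnt6 rose by 0.90 and Wnt10a by 1.17. Wnt1 rose by 0.93 on its brighter probe and Wnt10b was at least 5.25-fold higher. Wnt9a rose by 2.65 while its neighbour Wnt3a was above background on no array. In VC, Wnt6 and Wnt10a differed by -0.14 and -0.36, neither called. No test of neighbours was made.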
